A study of Mus musculus with 27 samples.

Results

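The genes described here are 8 of the 55416 genes in the read-count table of the fetal mouse brain. They are Lin28a, Lin28b, Trim71, Igf2bp1, Igf2bp2, Igf2bp3, Hmga1 and Hmga2, the genes of the Lin28 and let-7 pathway of developmental timing. They were taken from the table by symbol, and the set was chosen with earlier results of these data known. All 8 had enough reads to be tested in each of the 17 comparisons. RNA of the whole brain was sequenced from female fetuses of gestational age d12, d15 and d17, with 3 libraries of each strain on each day and 27 in all. AKR/J and C57BL/6J mice are inbred, with the Cav1 gene intact. Cav1-null mice (B6.Cg-Cav1tm1Mls/J) carry a targeted null allele of Cav1, which encodes caveolin 1, on a C57BL/6J background, so that Cav1 is lost in every cell and not in the brain alone. The dams were about 8 weeks old, no group was treated, and the day of the vaginal plug was counted as day 1. The period from d12 to d15 is called the early phase and that from d15 to d17 the late phase. It was not stated whether the 3 fetuses of a group came from separate litters, so the p-values measure the spread between these fetuses. The tissue was a mixture of all brain cells, and fewer cells of a type cannot be told apart from less RNA per cell.

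LIN28A and LIN28B are RNA-binding proteins that bind precursors of the let-7 microRNAs and keep them from being processed. Mature let-7 in turn pairs with sites in the 3′ untranslated regions (UTRs) of its targets, among which are the mRNAs of both Lin28 genes, Hmga2, the 3 Igf2bp genes and Trim71, and lowers them. In many animal tissues, Lin28 is high in early stages and let-7 rises as cells mature, which made the pathway known as a developmental clock. In the fetal brain, several of its genes are known as genes of early neural progenitors. Mature microRNAs have no poly-A tail and were not measured by this poly-A RNA sequencing.

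The let-7 family is shown here because the members are grouped by this shared seed, given in capitals as bases 2 to 8. The sequences are those of RefSeq (GRCm38.p6). The seed GAGGUAG was shared by the 9 microRNAs of the family found in that table, of which 4 are printed, and miR-125, a microRNA transcribed with let-7 that also targets Lin28, has another seed.
let-7a-5p: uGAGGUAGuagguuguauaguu
let-7b-5p: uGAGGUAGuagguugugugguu
let-7g-5p: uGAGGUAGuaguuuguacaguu
miR-98-5p: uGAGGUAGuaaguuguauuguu
miR-125b-5p: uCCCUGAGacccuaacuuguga

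The reverse complement of that seed followed by A, the letters CTACCTCA, was looked for on the sense strand of the longest annotated 3′ UTR of each gene (GRCm39, GENCODE vM39). It was present in 7 of the 8 members, against 4.0% of the 20960 3′ UTRs of protein-coding genes. The UTRs of the members were long, with a median of 2898 bases against 1467 over all genes, and longer UTRs hold such letters more often. Among UTRs within 10% of the length of each member, between 3.00% and 11.1% held the 8 letters. Trim71 had 4 matches, Igf2bp1 had 3, Lin28a had 2, and Lin28b, Hmga2, Igf2bp2 and Igf2bp3 had 1 each. Hmga1 was the member with none and had only the 7 letters CTACCTC, once. The 7 letters, which are part of the 8, were present in all 8 members and in 11.9% of all UTRs. Among UTRs of like length, the share was from 8.21% for Hmga1 to 34.1% for Igf2bp1. In Lin28b and in Hmga2 they occurred 4 times, a number reached by 0.284% and 0.185% of UTRs of like length. The 8 letters of miR-125, CTCAGGGA, were present in Lin28a, Lin28b and Trim71 and in 5.83% of all UTRs. Among UTRs of like length to these genes, 8.12%, 12.2% and 14.1% held them. The genes were chosen as known let-7 targets, so the matches describe them and are no separate evidence. One site of each member is printed with the match in capitals, on the strand of the gene, to show how the flanks differ around the same letters.
Lin28a, chr4:133732492-133732521, minus strand: cacagcctgttgaaCTACCTCAtttttgcc
Lin28b, chr10:45257110-45257139, minus strand: cccgggcgggaagtCTACCTCAtgcaagca
Trim71, chr9:114341532-114341561, minus strand: acattgcctaagtcCTACCTCAgcttaaat
Igf2bp1, chr11:95852596-95852625, minus strand: ctgtgcgaagtaaaCTACCTCAaggtgtga
Igf2bp2, chr16:21878215-21878244, minus strand: cacacaaataaaagCTACCTCAggtgtttt
Igf2bp3, chr6:49063713-49063742, minus strand: gcatttttactcaaCTACCTCAggtattca
Hmga2, chr10:120200121-120200150, minus strand: ccgacattcaatttCTACCTCAgcatcagt
Hmga1, chr17:27782252-27782281, plus strand: cctctgttcacaaaCTACCTCtggacggtt
Lin28a, miR-125 match, chr4:133732604-133732633, minus strand: ggtacatgagcaatCTCAGGGAtaataagt

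**Figure D1:**
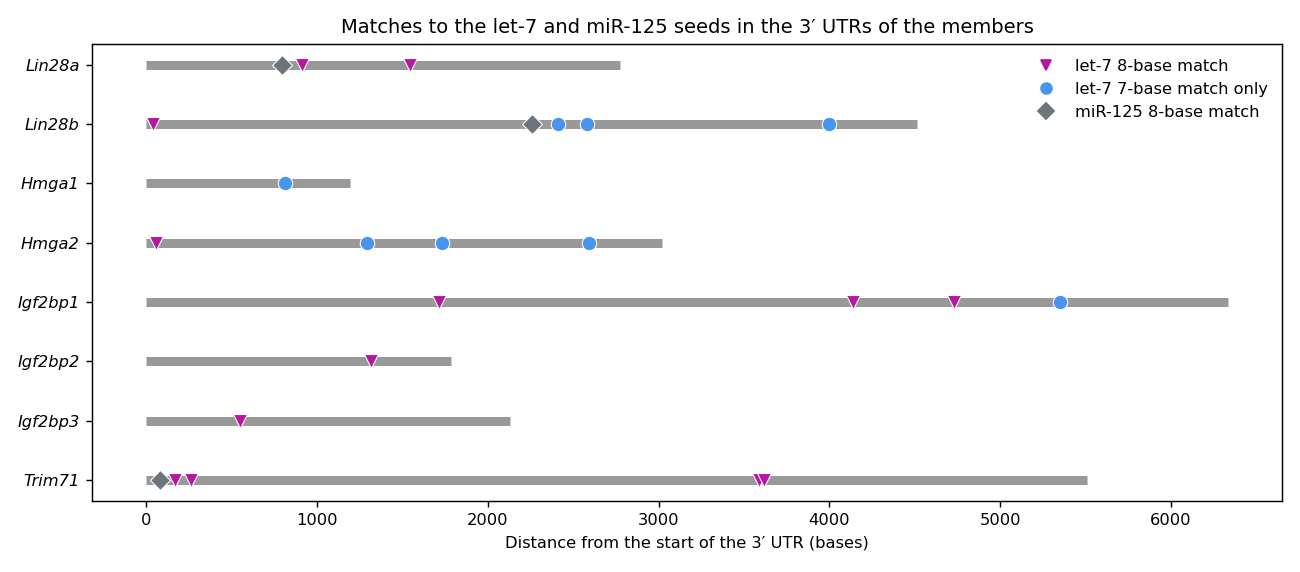
The 3′ UTR of each member is drawn as a bar from its start, in bases, with the let-7 matches of 8 bases (triangles), those of 7 bases only (circles) and the miR-125 matches (diamonds). Trim71 has 4 let-7 matches of 8 bases and Hmga1 has a single match of 7 bases.

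The libraries held 26363697 to 39759702 reads on genes. Levels are in CPM, the reads of a gene relative to all reads on genes of the library, scaled by TMM, the trimmed mean of M values. Cav1 was at 0 to 0.509 CPM in the 9 Cav1-null libraries and at 9.24 CPM or more in all others, as labelled. Some d12 libraries stood apart. The summed CPM of 8 brain markers was 2347 to 2604 in AKR/J d12 and 3824 to 7472 in the other groups. The summed CPM of 10 erythroid genes was 33204 to 197819 in AKR/J d12 and 569 to 18614 elsewhere, and that of 10 trophoblast and decidua genes was 36.7 to 797 in AKR/J d12, 77.7 in replicate 3 of C57BL/6J d12 and at most 7.98 in all others. The summed CPM of 6 genes of connective tissue and cartilage was 5510 in replicate 1 of C57BL/6J d15 and 429.6 and 637 in the other replicates of that group. It was 1137 in replicate 1 of C57BL/6J d17, 1181 in replicate 2 of AKR/J d15 and 987 in replicate 3 of Cav1-null d12. The other replicates of these groups were at 260 or less. The part of these tissues in the results of the members was not tested, and where a call was lost without such a library, this is given beside it. A fit without a library is 1 of 6 for each comparison, and the number of these fits in which a call held is given for the calls that did not hold in all. Without any 1 of the AKR/J d12 libraries, the early falls of Lin28a, Trim71 and Hmga2 in AKR/J held, with adjusted p of at most 0.0177, 0.0168 and 0.0223 by edgeR over all 6 fits.

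Reads of Hmga1 were split in a way that followed the strain and a part of the C57BL/6J libraries. Hmga1b is a single-exon copy (chr11:120653620-120655245, plus strand) whose sequence matched the Hmga1 transcript at 1561 of 1564 aligned bases (99.8%). In the 9 AKR/J libraries, 54.4% to 62.9% of the reads on the 2 genes were counted on Hmga1b, and in 6 C57BL/6J libraries 27.3% to 54.8%. In all 9 Cav1-null libraries and in the other 3 C57BL/6J libraries (replicate 3 of d12, replicate 3 of d15 and replicate 2 of d17), Hmga1b had 1 to 6 reads and at most 0.446%. By a rule chosen after the split was seen, 8 genes (Hmga1b, Prss22, Gm14292, Atp6v0c-ps2, Rps2-ps10, Tmem181c-ps, Rnps1-ps and Gm10503) divided the C57BL/6J libraries in this way and none in the opposite way, and each of the 8 was under 1 CPM in the Cav1-null libraries. These 3 C57BL/6J libraries were thus like the Cav1-null libraries in these genes, while Cav1 was at 10.4 to 39.9 CPM in all 9 C57BL/6J libraries. Their strain background was not tested further. Each day of C57BL/6J holds 1 of them, and so does each comparison with C57BL/6J of that day. The late falls of Hmga2 and the 3 Igf2bp genes in C57BL/6J held without the one of d15 (highest adjusted p = 0.0281 by edgeR) and without the one of d17 (highest adjusted p = 0.00593 by edgeR). The counts of Hmga1 alone are uncertain. The values of Hmga1 are therefore given also with the reads of both genes summed, an alternative chosen after seeing the data.

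**Figure D2:**
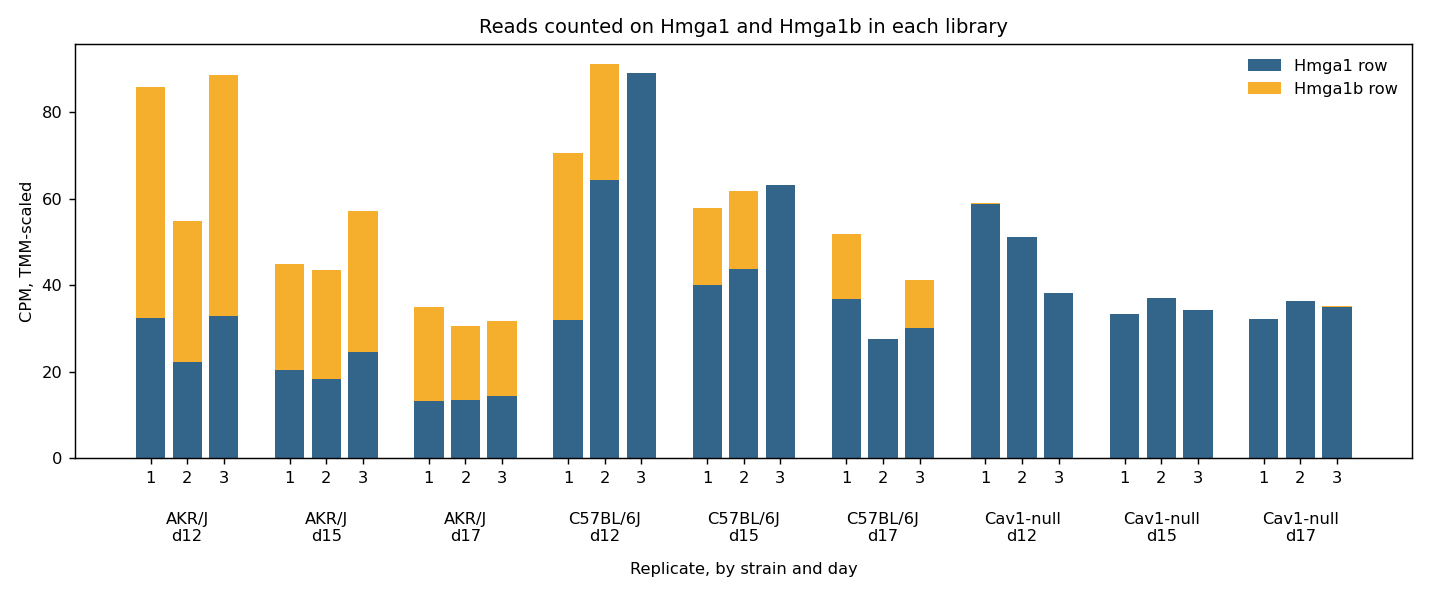
Bars show the CPM counted on Hmga1 (blue) and stacked on it the CPM counted on Hmga1b (yellow) in each of the 27 libraries, by strain, day and replicate. Hmga1b takes 54.4% to 62.9% of the sum in all AKR/J libraries and at most 0.446% in the Cav1-null libraries and in 3 of the C57BL/6J libraries.

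Hmga2 and the 3 Igf2bp genes fell over gestation in all 3 strains, and Lin28b passed the test only in the early phase of AKR/J. A gene was called DE (differentially expressed) at an adjusted p under 0.05 in the quasi-likelihood test of edgeR, adjusted by Benjamini-Hochberg over all genes tested. In the early phase, 6 of 8 members fell in AKR/J, 4 of 8 in C57BL/6J mice and 7 of 8 in Cav1-null fetuses, where 14%, 7.8% and 11.8% of all genes tested fell. Later, 6 fell in AKR/J, 4 in C57BL/6J mice and 4 in Cav1-null fetuses, against 10.4%, 5.58% and 12.8% of all genes. No member rose in any of these 6 comparisons, where 14.8%, 7.08% and 11.6% of all genes rose in the early and 11.6%, 7.46% and 14.5% in the late phase of the 3 strains. In either direction, 28.9%, 14.9% and 23.4% of all genes were called in the early phase and 22.1%, 13% and 27.3% in the late one. Hmga2, Igf2bp1 and Igf2bp3 fell in both phases in all 3 strains. The log2 fold change was close to 0 for the median of all genes in each of them, between -0.04 and 0.03.

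**Figure D3:**
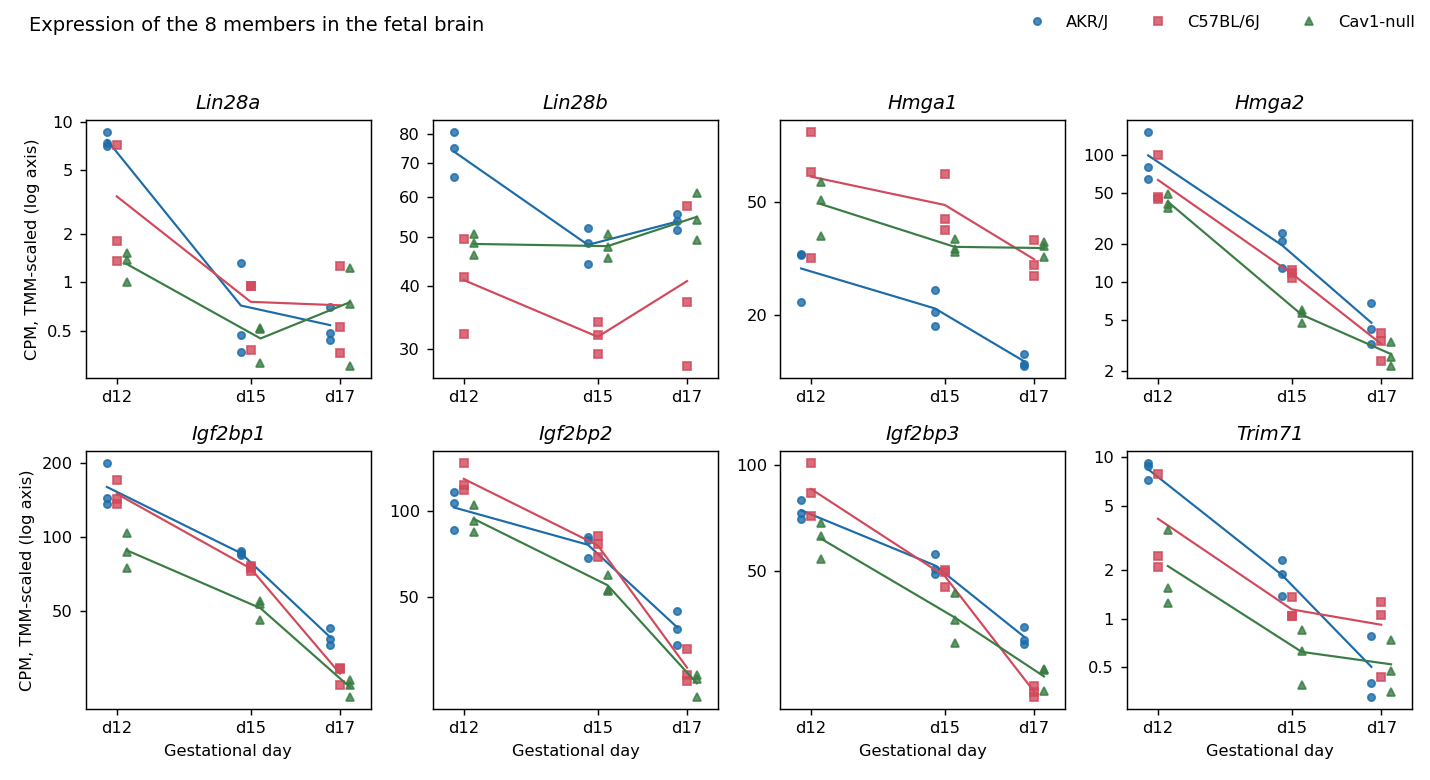
Each point is the CPM of a member in 1 library on a log axis, by gestational day, with circles for AKR/J, squares for C57BL/6J, triangles for Cav1-null and lines through the means of 3 libraries. Hmga2 drops from 38.0 to 152 CPM on d12 to 2.19 to 6.81 CPM on d17, and Lin28b stays between 27.7 and 80.7 CPM throughout.

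Lin28a and Lin28b are paralogs that block let-7 maturation, and they differed in level and in course. Lin28a (ENSMUSG00000050966, chr4:133730641-133746173) was an early transcript of low level. It was at 7.05, 8.69 and 7.42 CPM in AKR/J on d12 and at 0.367 to 1.31 CPM on d15. In C57BL/6J on d12 it was at 1.36, 1.80 and 7.14 CPM, and in Cav1-null mice at 0.999, 1.53 and 1.38 CPM. The high C57BL/6J value was that of replicate 3, so 1 library of that group lay in the AKR/J range and the others near the Cav1-null range. Lin28a fell in the early phase by 3.47 on the log2 scale in AKR/J (SE 0.51, adjusted p = 0.00302 by edgeR), and in Cav1-null mice the change was -1.53 ± 0.37 (SE, adjusted p = 0.0183), a call that held in 2 of 6 fits (highest adjusted p = 0.0751). The C57BL/6J change was -2.25 ± 0.72 (SE, adjusted p = 0.0711) and did not pass. Without replicate 3 of d12 it was -1.09 (adjusted p = 0.143). Without replicate 2 of d12 it passed (adjusted p = 0.0481 by edgeR), in a fit that called 29.8% of all genes. All 18 libraries of d15 and d17 were at 0.301 to 1.31 CPM with overlapping groups, and the late-phase changes of -0.38 in AKR/J, -0.01 in C57BL/6J mice and 0.75 in Cav1-null mice did not pass.

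Lin28b (ENSMUSG00000063804, chr10:45252646-45362557) was much the more abundant of the pair and varied the least of all members, with a ratio of 2.33 between the highest and the lowest group mean, against 17.3 for Lin28a. It was at 80.7, 65.6 and 74.8 CPM in AKR/J on d12, at 48.5, 44.1 and 52.0 CPM on d15 and at 51.5, 53.7 and 55.6 CPM on d17. The d12 libraries of AKR/J were thus above all other 24. Lin28b fell there in the early phase by 0.66 on the log2 scale (SE 0.15, adjusted p = 0.0145 by edgeR), and the call held in 1 of 6 fits, that without replicate 2 of d12, and was lost without each of the other libraries of d12 and d15 (highest adjusted p = 0.0789) and when libraries were scaled by their size alone (-0.19, adjusted p = 0.518), a scaling that moved the median of all genes to 0.46. When the reads of the blood, placenta and yolk sac genes were taken out of the library sizes and no TMM scaling was used, the AKR/J means of Lin28b were 63.8 CPM on d12 and 51.8 CPM on d15. In Cav1-null mice, Lin28b was at 50.5, 48.6 and 45.9 CPM on d12 and at 45.4, 47.7 and 50.5 CPM on d15, with a change of -0.01 ± 0.09 (SE, adjusted p = 0.934). In C57BL/6J its early change was -0.43 ± 0.18 (SE, adjusted p = 0.135 by edgeR), and it passed without replicate 2 of d12 (adjusted p = 0.0165 by edgeR). In the late phase its change was positive in each strain, at 0.17 ± 0.08, 0.42 ± 0.24 and 0.20 ± 0.09 (SE, in AKR/J, C57BL/6J and Cav1-null fetuses), and passed in none (adjusted p = 0.188, 0.252 and 0.124 by edgeR). Without replicate 1 of C57BL/6J d17, the late change in C57BL/6J passed (adjusted p = 0.0292 by edgeR), in a fit that called 33.2% of all genes. C57BL/6J was the strain with the lowest mean on each day, with group means of 41.0 ± 8.73, 31.7 ± 2.27 and 40.8 ± 15.3 CPM (SD, n = 3).

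Per kilobase of exon, a scale on which genes can be compared, Lin28b changed place among the members. In RPKM, which is CPM per kilobase of union exon length, it was the 5th of 8 members in AKR/J on d12, at 7.65 ± 0.791 RPKM (SD, n = 3), behind Igf2bp1 at 15.5, Igf2bp2 at 12.8, Hmga2 at 11.5 and Igf2bp3 at 8.53 RPKM. On d17 it was the highest, at 5.56 ± 0.213 RPKM, ahead of Igf2bp2 at 4.88 ± 0.671 RPKM, with Hmga1 counted alone. With Hmga1 and Hmga1b summed over the exon length of Hmga1, the sum was the highest, at 7.04 ± 0.495 RPKM (SD, n = 3), and Lin28b was the 2nd on d17 and the 6th on d12. On d17 it was the 2nd member in C57BL/6J, at 4.24 ± 1.58 RPKM, and in Cav1-null mice, at 5.68 ± 0.612 RPKM, after Hmga1 in both. Lin28a on d17 was at 0.135 to 0.187 RPKM in the 3 strains.

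Trim71 (ENSMUSG00000079259, chr9:114336201-114393437) encodes an RNA-binding ubiquitin ligase, the mammalian relative of the worm heterochronic gene lin-41. Its mean levels were ordered by strain as those of Lin28a on d12, but not on d15 or d17. It was at 8.82, 7.24 and 9.24 CPM in AKR/J on d12, at 2.08, 2.46 and 7.94 CPM in C57BL/6J and at 1.55, 1.25 and 3.54 CPM in Cav1-null mice. Replicate 3 was again the C57BL/6J library within the AKR/J range, and it was also the highest of the Cav1-null libraries. Trim71 fell in the early phase by 2.23 on the log2 scale in AKR/J (SE 0.31, adjusted p = 0.00255 by edgeR), and in Cav1-null mice the change was -1.78 ± 0.49 (SE, adjusted p = 0.0308), a call that was lost without any 1 of the Cav1-null d15 libraries (highest adjusted p = 0.114). In C57BL/6J the change was -1.93 ± 0.55 (SE, adjusted p = 0.056), and without replicate 3 of d12 it was -1.02 (adjusted p = 0.0528). Without replicate 2 of d12 it passed (adjusted p = 0.0332 by edgeR), where 29.8% of all genes were called. Trim71 fell again in AKR/J in the late phase, from 1.38, 1.89 and 2.3 CPM to 0.778, 0.325 and 0.401 CPM, by 1.86 on the log2 scale (SE 0.40, adjusted p = 0.0144). The call was lost without replicate 2 or without replicate 3 of AKR/J d17. The late changes of C57BL/6J and of Cav1-null mice were both -0.25 and did not pass.

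The 3 Igf2bp genes encode RNA-binding proteins that hold and stabilize mRNAs, Igf2 mRNA among them, and are largely fetal in expression. Igf2bp1 (ENSMUSG00000013415, chr11:95847989-95896911) was at 144, 200.2 and 136 CPM in AKR/J on d12, at 86.2, 84.4 and 87.7 CPM on d15 and at 43.0, 38.5 and 36.3 CPM on d17. In C57BL/6J it was at 136, 143 and 171 CPM, then at 73.0, 76.1 and 74.6 CPM and then at 29.2, 29.4 and 25.2 CPM. In Cav1-null mice it was at 104, 86.8 and 74.7 CPM, then at 46.1, 53.3 and 55.0 CPM and then at 25.1, 22.4 and 26.4 CPM. The days did not overlap in any strain. Its log2 fold changes were -0.94 ± 0.19, -1.06 ± 0.12 and -0.78 ± 0.13 in the early phase and -1.12 ± 0.09, -1.36 ± 0.11 and -1.06 ± 0.10 in the late phase (SE, in AKR/J, C57BL/6J and Cav1-null fetuses), and all 6 passed (highest adjusted p = 0.0159 by edgeR). The early call in AKR/J held in 4 of 6 fits and was lost without replicate 1 of d15 (-0.93, adjusted p = 0.0528) and without replicate 3 of d15 (-0.94, adjusted p = 0.0513). It was also lost with library sizes alone (-0.55, adjusted p = 0.256).

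Igf2bp2 (ENSMUSG00000033581, chr16:21877759-21982499) and Igf2bp3 (ENSMUSG00000029814, chr6:49062144-49192447) also had lower means on d17 than on d12 in all 3 strains. Igf2bp2 fell from 103 ± 15.6 to 39.2 ± 5.39 CPM between d12 and d17 in AKR/J, from 129 ± 15.5 to 28.4 ± 3.91 CPM in C57BL/6J mice and from 93.7 ± 10.3 to 25.0 ± 2.29 CPM in Cav1-null mice (SD, n = 3). Its early change in AKR/J, -0.48 ± 0.17 (SE, adjusted p = 0.0681 by edgeR), was the only one of the 6 that did not pass. Igf2bp3 fell from 74.5 ± 4.66 to 32.5 ± 1.88 CPM in AKR/J, from 85.7 ± 15.0 to 22.7 ± 0.838 CPM in C57BL/6J and from 61.9 ± 7.17 to 25.1 ± 2.01 CPM in Cav1-null mice (SD, n = 3). Its smallest change was that of the late phase in Cav1-null mice, -0.55 ± 0.12 (SE, adjusted p = 0.0032), and its early change in AKR/J, -0.57 ± 0.14 (SE, adjusted p = 0.0197), was lost without replicate 3 of d12 (-0.60, adjusted p = 0.0505) and in 4 of the other 5 fits without a library. It did not pass with library sizes alone (-0.14, adjusted p = 0.719).

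The early calls of Hmga2 and the 3 Igf2bp genes in C57BL/6J depended on single libraries. They held without replicate 3 of d12 (adjusted p of 0.00109 to 0.0062 by edgeR), but none of them held without replicate 1 of d15, the library with the high connective tissue genes, where adjusted p was 0.0745 to 0.0837, or without replicate 2 or replicate 3 of d15. Igf2bp2 was also lost without replicate 1 of d12 (-0.87, adjusted p = 0.0516). In these 3 fits the share of all genes called fell from 14.9% to at most 0.0303%. The changes themselves moved little, for example from -1.06 to -1.02 and -1.04 for Igf2bp1 without replicate 1 and without replicate 3.

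Hmga2 and Hmga1 encode architectural chromatin proteins with AT-hooks, and Hmga2 is known to sustain the self-renewal of fetal neural stem cells. Hmga2 (ENSMUSG00000056758, chr10:120197173-120313095) had the widest range of all members, with a ratio of 36.3 between the highest and the lowest group mean. In AKR/J it was at 152, 80.1 and 64.6 CPM on d12, at 12.9, 24.4 and 21.1 CPM on d15 and at 4.31, 3.25 and 6.81 CPM on d17. In C57BL/6J it was at 46.3, 44.6 and 99.4 CPM, then at 12.5, 11.7 and 10.7 CPM and then at 2.42, 3.95 and 3.44 CPM. In Cav1-null mice it was at 49.3, 38.0 and 41.0 CPM, then at 4.81, 5.74 and 6.07 CPM and then at 2.57, 3.39 and 2.19 CPM. The 3 days did not overlap within any strain. Hmga2 fell in the early phase by 2.39 (SE 0.36), 2.51 (SE 0.34) and 2.94 (SE 0.15) on the log2 scale in AKR/J, C57BL/6J and Cav1-null fetuses, with adjusted p of 0.00352, 0.0162 and 4.45e-05 by edgeR. In the late phase it fell by 2.01 (SE 0.32), 1.77 (SE 0.22) and 1.02 (SE 0.21), with adjusted p of 0.00407, 0.00601 and 0.00242. The late call in C57BL/6J held in 5 of 6 fits and was at the threshold without replicate 3 of d17 (-1.83, adjusted p = 0.05), where it did not pass. On d15 the order of its levels, AKR/J over C57BL/6J over Cav1-null, held with no overlap between libraries.

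Hmga1 (ENSMUSG00000046711, chr17:27775449-27782648) fell less than Hmga2. Counted alone, it was at 32.5, 22.2 and 32.9 CPM in AKR/J on d12 and at 13.2, 13.4 and 14.5 CPM on d17, and in C57BL/6J on d12 it was spread from 31.9 to 89.0 CPM. The sum of Hmga1 and Hmga1b was 83.7 ± 11.32 CPM in that group, against 61.7 ± 28.6 CPM for Hmga1 alone (SD, n = 3). The SD of the sum was also the smaller on d15, at 2.73 against 12.4 CPM, but on d17 it was the larger, at 12.2 against 4.84 CPM. The sum went from 76.4 ± 18.8 to 48.5 ± 7.49 and 32.5 ± 2.29 CPM over the 3 days in AKR/J, from 83.7 ± 11.32 to 61.0 ± 2.73 and 40.3 ± 12.2 CPM in C57BL/6J and from 49.5 ± 10.5 to 34.9 ± 1.88 and 34.6 ± 2.13 CPM in Cav1-null mice (SD, n = 3). Hmga1 alone passed in the early phase only in Cav1-null mice (-0.50 ± 0.14 SE, adjusted p = 0.0363 by edgeR), a call that held in 1 of 6 fits. Without replicate 2 of AKR/J d12, it also passed early in AKR/J (adjusted p = 0.00971 by edgeR), in a fit that called 43.5% of all genes. With the sum, all 3 strains passed there, with -0.70 in AKR/J (adjusted p = 0.0421), -0.51 in C57BL/6J mice (adjusted p = 0.0336) and -0.50 in Cav1-null mice (adjusted p = 0.0359). Only AKR/J passed in the late phase, with -0.61 for Hmga1 alone (adjusted p = 0.0142) and -0.56 for the sum (adjusted p = 0.0117). The call of Hmga1 alone held in 5 of 6 fits and was lost without replicate 2 of d17 (-0.59, adjusted p = 0.0772). In C57BL/6J, Hmga1 alone passed late without replicate 1 of d17 (adjusted p = 0.0367 by edgeR), where 33.2% of all genes were called. The Cav1-null value was -0.01 with either count.

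**Figure D4:**
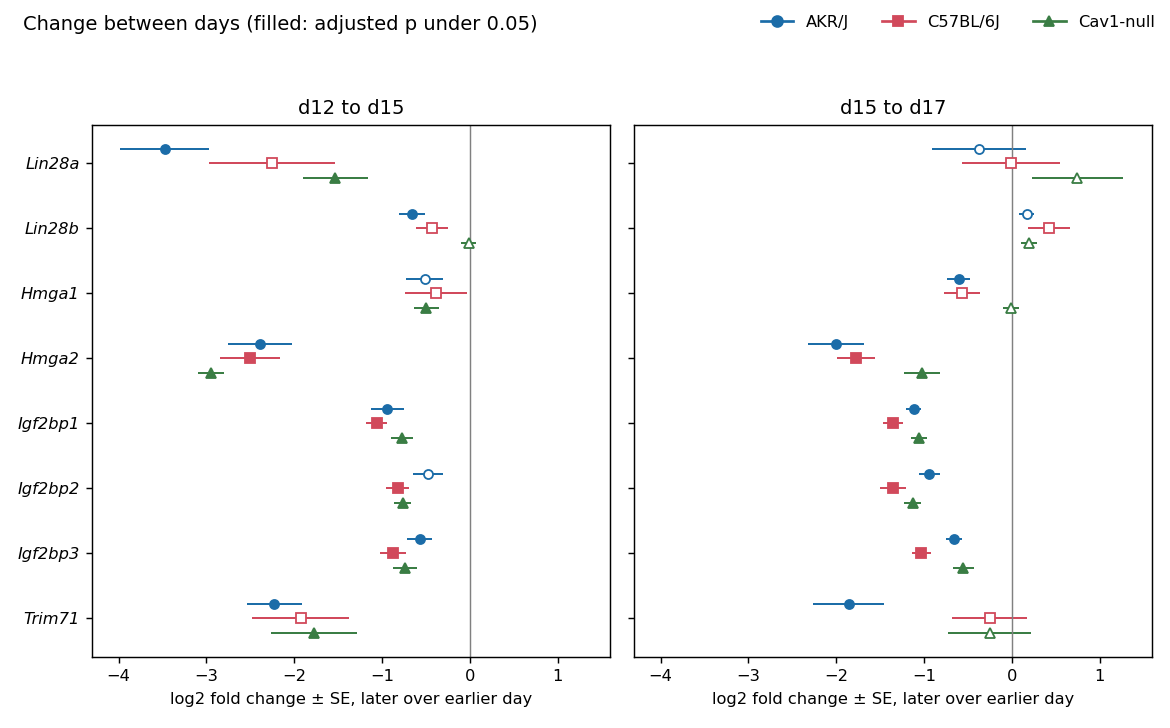
The log2 fold change of each member is plotted with its SE for the early phase (left) and the late phase (right), in AKR/J (circles), C57BL/6J (squares) and Cav1-null mice (triangles), and filled symbols have an adjusted p under 0.05. The Igf2bp genes lie between -1.36 and -0.48 in both panels, and Lin28b lies right of 0 in the late phase.

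The phases differ in length, with 3 days between d12 and d15 and 2 days between d15 and d17. Per day, Igf2bp1 changed on the log2 scale by -0.31 ± 0.06 early and by -0.56 ± 0.04 late in AKR/J, by -0.35 ± 0.04 and -0.68 ± 0.06 in C57BL/6J mice and by -0.26 ± 0.04 and -0.53 ± 0.05 in Cav1-null mice (SE). All 3 Igf2bp genes had the larger value per day in the late phase in all 3 strains. Hmga2 changed per day by -0.80 ± 0.12 and -1.0 ± 0.16 in AKR/J, by -0.84 ± 0.11 and -0.89 ± 0.11 in C57BL/6J mice and by -0.98 ± 0.05 and -0.51 ± 0.10 in Cav1-null mice (SE). The larger fall per day was thus the late one for the Igf2bp genes and, in Cav1-null mice, the early one for Hmga2. The phases share the d15 libraries, and the difference between them was not tested.

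The difference from C57BL/6J in the early change of a member did not pass for either strain when that difference itself was tested. The interaction of strain and day over 12 libraries called 0 of 8 members for AKR/J and 0 of 8 for Cav1-null mice by edgeR, against 0.0711% (0.00474% higher and 0.0664% lower) and 0.00472% of all genes. Without the adjustment, 3432 and 3181 genes had a p under 0.05. The share of all genes called depended on the fit. DESeq2 called 4.83% and 2.44% and the model of all 27 libraries 7.12% and 0%, each with 0 of 8 members. With library sizes alone, 89 genes were higher and 18 lower for AKR/J, where TMM scaling gave 1 and 14, and the median of all genes went to 0.58. Without replicate 2 of AKR/J d12 the share was 14.8% for AKR/J, with 0 members, and without replicate 3 of C57BL/6J d12 it was 1.74%. For Cav1-null mice it was 7.3% without replicate 2 of C57BL/6J d12, where 1 member, Lin28b, was called (adjusted p = 0.0468 by edgeR, the lowest of its 12 fits without a library). The largest values were those of Lin28a, -1.30 ± 0.91 (SE, adjusted p = 0.509) for AKR/J and 0.69 ± 0.84 (adjusted p = 0.731) for Cav1-null mice. For Hmga2 they were 0.05 ± 0.51 and -0.47 ± 0.38 (SE, adjusted p = 0.978 and 0.581).

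Between strains on the same day, the members were highest in AKR/J and lowest in Cav1-null mice most often on d12 and d15. By group means, AKR/J was highest for 5 of 8 members on d12 and 6 on d15, and Cav1-null mice were lowest for 6 on both days. Many of these ranges overlapped. Of the members highest in AKR/J, only Lin28b was apart from the next strain on d12, and only Hmga2, Igf2bp1 and Trim71 on d15. Of those lowest in Cav1-null mice, only Igf2bp1 and Igf2bp3 were apart on d12, and all but Lin28a on d15. On d17, AKR/J was highest for 4 members, Cav1-null mice for 3 and C57BL/6J for 1. With Hmga1 and Hmga1b summed, Cav1-null mice were lowest for 7 on d12 and d15, and on d17 the highest was AKR/J for 4, Cav1-null for 2 and C57BL/6J for 2. These comparisons share libraries with each other and with those between days.

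AKR/J against C57BL/6J gave 1 higher member on d12 (Lin28b), 3 higher and 1 lower on d15 and 1 lower on d17 (Hmga1), where 14.5%, 18.8% and 0.381% of all genes were called higher and 14.1%, 22.3% and 0.361% lower. On d15, when 4 of 8 members were called, 41.1% of all genes were. Lin28b was 0.98 ± 0.22 higher on the log2 scale on d12 (SE, adjusted p = 0.0155 by edgeR) and 0.67 ± 0.08 higher on d15 (adjusted p = 0.000733). Hmga2 was 0.81 ± 0.23 higher on d15 (adjusted p = 0.0272) and Igf2bp1 0.28 ± 0.05 higher (adjusted p = 0.00433). The d15 call of Hmga2 held in 1 of 6 fits, that without replicate 1 of AKR/J, and was lost in the other 5 (0.61 to 0.86, adjusted p of 0.0597 to 0.0976). On d12 the calls turned on single libraries, and Lin28b held in 2 of 6 fits. With library sizes alone it did not pass (0.54, adjusted p = 0.195), and 0 members were higher and 1 lower, with 1362 genes of all higher and 3153 lower in place of 2797 and 2732. On d15 that scaling turned 3696 higher and 4393 lower genes into 5542 and 3281, with 5 members higher and 1 lower. On d12 the same-numbered libraries of these 2 groups deviated together (correlations of 0.15, 0.40 and 0.33), and with a replicate block 3 members were higher, Lin28a (1.71, adjusted p = 0.0321), Lin28b (1.00, adjusted p = 0.00382) and Trim71 (1.42, adjusted p = 0.0297). With that block 34% of all genes were called, and 3115 of 19320 were higher. Without replicate 3 of AKR/J d12, Lin28b did not pass (0.96, adjusted p = 0.0596). Without replicate 3 of C57BL/6J d12, 4 members passed, Lin28a at 2.41 (adjusted p = 0.00678), Lin28b at 1.12 (adjusted p = 0.0139), Hmga2 at 1.24 (adjusted p = 0.0395) and Trim71 at 2.01 (adjusted p = 0.00898). In that fit 28.1% of all genes were called. On d17, 4 members passed without replicate 2 of C57BL/6J, among them Lin28b at 0.72 (adjusted p = 0.0122), and 26.4% of all genes were then called. Hmga1 alone was lower in AKR/J on d15 (-1.15, adjusted p = 0.00223) and d17 (-1.22, adjusted p = 0.0125, a call that held in 2 of 6 fits), and the sum with Hmga1b did not pass on either day (-0.26 and -0.33, adjusted p = 0.0662 and 0.392).

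Cav1-null mice against C57BL/6J differed on d15. On that day Lin28b was higher in Cav1-null mice and 5 members were lower, where 26.8% of all genes were called higher and 31.8% lower. With library sizes alone, 5310 higher and 6311 lower genes became 7192 and 4952, and 1 member was higher and 3 were lower, as Hmga1 (-0.27, adjusted p = 0.133 by edgeR) and Igf2bp3 (-0.17, adjusted p = 0.195 by edgeR) did not pass. Lin28b was at 45.4 to 50.5 CPM in Cav1-null mice and at 29.3 to 33.8 CPM in C57BL/6J, with no overlap and a log2 fold change of 0.64 ± 0.07 (SE, adjusted p = 3.07e-05 by edgeR). Hmga2 was 1.03 lower on the log2 scale (-1.03 ± 0.15 SE, adjusted p = 0.000146), Igf2bp1 -0.49 ± 0.07 (adjusted p = 0.000129), Igf2bp2 -0.42 ± 0.08 (adjusted p = 0.00108) and Igf2bp3 -0.35 ± 0.11 (adjusted p = 0.0173). The 5th was Hmga1 (-0.45, adjusted p = 0.021, and -0.76, adjusted p = 3.48e-06, for the sum). Lin28b, Hmga2, Igf2bp1 and Igf2bp2 passed in all 6 fits without a library. Igf2bp3 passed in 3 of 6 (lost without replicate 2 of C57BL/6J and without replicates 1 or 2 of Cav1-null d15, highest adjusted p = 0.0715) and Hmga1 in 4 of 6 (lost without replicates 1 or 3 of Cav1-null d15, highest adjusted p = 0.0693). With 58.6% of all genes called on d15, 6 of 8 is not a result about the members as a set, and the direction of Lin28b against the other 5 is the pattern in it.

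On d12 and d17, no member passed between Cav1-null mice and C57BL/6J. On d12, edgeR called no gene at all (0%), 4309 genes had an unadjusted p under 0.05, and DESeq2 called 2044 genes and 1 member. Without replicate 3 of C57BL/6J, edgeR called 1500 genes (7.37%) and 0 members. The d12 values ranged from -1.38 ± 0.62 for Lin28a to 0.26 ± 0.19 for Lin28b (SE). On d17, 0.0491% of all genes were called, 0.00491% higher and 0.0442% lower. Without replicate 2 of C57BL/6J d17, in which Lin28b was at 57.6 CPM against 27.7 and 37.2 CPM in the others, 13.6% of all genes and Lin28b were called (0.74, adjusted p = 0.0303 by edgeR). That library is also 1 of the 3 with almost no Hmga1b reads.

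**Figure D5:**
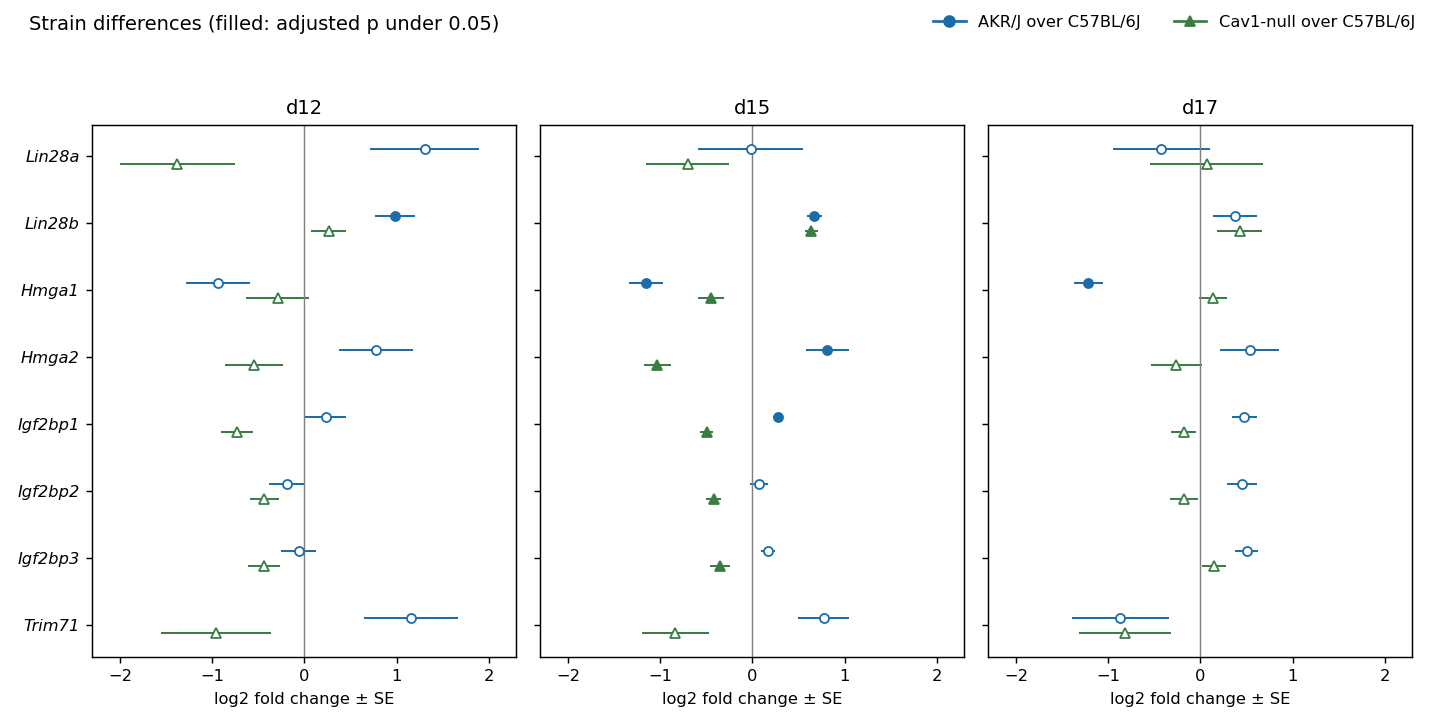
The log2 fold change of AKR/J (circles) and Cav1-null mice (triangles) over C57BL/6J is plotted with its SE for each member on d12, d15 and d17, and filled symbols have an adjusted p under 0.05. On d15, Lin28b is higher in both strains (0.67 and 0.64), and Hmga2 is higher in AKR/J (0.81) and lower in Cav1-null mice (-1.03).

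AKR/J against Cav1-null mice gave 5 higher members on d12, 5 higher and 1 lower on d15, and 3 higher and 1 lower on d17, where 9.65%, 9.6% and 5.73% of all genes were higher and 9.93%, 9.7% and 6.67% lower. On d12 these were Lin28a (2.61 ± 0.32 SE, adjusted p = 0.00198 by edgeR), Trim71 (2.03 ± 0.43, adjusted p = 0.0145), Hmga2 (1.26 ± 0.31, adjusted p = 0.0236), Igf2bp1 (0.90 ± 0.22, adjusted p = 0.0221) and Lin28b (0.66 ± 0.15, adjusted p = 0.0198). With library sizes alone, only Lin28a was still higher (2.22, adjusted p = 0.0126), 1 member was lower, and the median of all genes went to -0.41. Over the 6 fits without a library, Lin28a held in 6, Trim71 in 4, Hmga2 in 3, Igf2bp1 in 3 and Lin28b in 1. Without replicate 3 of AKR/J d12, the first 4 of these passed and Lin28b did not (0.64, adjusted p = 0.0706). Without replicate 3 of Cav1-null d12, Lin28a and Trim71 passed and Hmga2 (1.22, adjusted p = 0.0713), Igf2bp1 (0.79, adjusted p = 0.0766) and Lin28b did not. On d15, Hmga2 was 1.80 ± 0.24 higher in AKR/J (SE, adjusted p = 0.00188), Trim71 1.56 ± 0.37 (adjusted p = 0.0213) and Igf2bp1 0.73 ± 0.08 (adjusted p = 0.000948). Igf2bp2 and Igf2bp3 were the others called higher on d15. Trim71 held in 3 of 6 fits there, Igf2bp2 in 4 and Igf2bp3 in 2. Lin28b did not differ beyond its error on d15 (-0.01 ± 0.08) or d17 (-0.04 ± 0.09), with adjusted p of 0.952 and 0.825. On d17 the 3 Igf2bp genes were still higher in AKR/J, by 0.66, 0.64 and 0.37 (highest adjusted p = 0.0281), and the call of Igf2bp3 held in 2 of 6 fits. Hmga1 alone was lower in AKR/J on d15 (-0.74, adjusted p = 0.00299), while the sum with Hmga1b was higher (0.46, adjusted p = 0.0204). On d17 Hmga1 alone was lower (-1.34, adjusted p = 2.24e-06), and the sum did not differ beyond its error (-0.10, adjusted p = 0.536).

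As indicators of stage, the members ordered the libraries of each strain by day. For each library the log2(CPM + 1) of each member was set to z-scores over the 27 libraries and averaged over the 8 members. This mean was 0.42 to 1.62 on d12, -0.51 to 0.25 on d15 and -0.96 to -0.66 on d17, so the 3 days did not overlap over the 3 strains when Hmga1 was counted alone. With Hmga1 and Hmga1b summed they did overlap, at 0.30 to 1.65 on d12, -0.64 to 0.38 on d15 and -0.97 to -0.55 on d17, while within each strain the days stayed apart. With Hmga1 alone, the Cav1-null libraries were lowest within d15, at -0.51 to -0.25, those of C57BL/6J were at -0.18 to -0.05 and those of AKR/J at -0.10 to 0.25. Replicate 3 of C57BL/6J d12 was at 1.62, against 0.53 and 0.71 in the other libraries of its group. With the sum it was at 1.56, below replicate 1 of AKR/J d12 at 1.65. On d12, AKR/J was at 1.27 to 1.44 and Cav1-null mice were at 0.42 to 0.63. These values are a description, since the members were chosen as genes of developmental timing.

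Single members did not always keep the days apart across strains. Igf2bp1 was at 86.1 ± 1.66 CPM in AKR/J on d15 and at 88.5 ± 14.7 CPM in Cav1-null mice on d12 (SD, n = 3). Hmga2 kept AKR/J d15 and Cav1-null d12 apart, at 19.5 ± 5.93 and 42.8 ± 5.88 CPM, but not AKR/J d17 and Cav1-null d15, at 4.79 ± 1.83 and 5.54 ± 0.652 CPM (SD, n = 3). In the order of the 9 group means, Hmga2 and Igf2bp1 placed all d12 groups above all d15 groups and these above all d17 groups, as did Igf2bp2 and Igf2bp3. Of the 8 pairs of neighbours in this order, the ranges were apart for 5 in Igf2bp1, 5 in Igf2bp2, 3 in Hmga2 and 3 in Igf2bp3, but only for 1 in Lin28a and 1 in Trim71. For Hmga2 the d12 ranges of C57BL/6J overlapped those of AKR/J and of Cav1-null mice, while the last 2 were apart.

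Among the members, the courses over the 27 libraries were most alike in the Igf2bp genes. The correlation of log2(CPM + 1) was 0.969 to 0.979 between the 3 of them, 0.936 between Hmga2 and Igf2bp1, and 0.881 between Lin28a and Trim71. Lin28b had 0.53 with Lin28a and -0.02 with Igf2bp2. The libraries share strain, day and dissection, so these values describe the set of libraries. Of 12512 genes with a mean of at least 5 CPM, those most like the mean of the members were Lbr, the lamin B receptor (r = 0.975), Rspo1, a secreted activator of Wnt signalling (0.970), 2610318N02Rik (0.969), Jam3, a junctional adhesion molecule (0.966), and Hba-x, an embryonic globin (0.966). Lbr was at 105 ± 7.32, 45.8 ± 1.34 and 28.7 ± 1.49 CPM over the 3 days in AKR/J and at 61.0 ± 10.6, 34.3 ± 1.94 and 29.0 ± 1.65 CPM in Cav1-null mice (SD, n = 3). Hba-x, a gene of blood and not of brain, went from 3112 ± 1948 to 4.29 ± 2.35 CPM between d12 and d17 in AKR/J. The genes most like Lin28b were Arhgap5, a GTPase activating protein (0.939), Zfp322a, a zinc finger protein (0.932), and Clk1, a kinase of splicing factors (0.929). Clk1 was at 203 ± 32.9, 153 ± 4.37 and 214 ± 67.2 CPM in C57BL/6J and at 422 ± 65.6, 247 ± 12.7 and 299 ± 19.6 CPM in AKR/J (SD, n = 3).

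Other known let-7 targets fell with the members in part. Of 26 such genes, 7 fell and 2 rose early in AKR/J, 11 fell and 0 rose in C57BL/6J, and 10 fell and 1 rose in Cav1-null mice. Between d15 and d17, 17, 10 and 12 fell and 2, 1 and 2 rose. The shares of all genes that fell were 14%, 7.8% and 11.8%, and 10.4%, 5.58% and 12.8%, as given above. The median log2 fold change of the list was -0.42, -0.41 and -0.33 for the early phase and -0.44, -0.47 and -0.27 for the late one. Ccnd1, the cyclin D1 gene of the G1 phase, fell in the early phase by 0.98, 1.44 and 2.18 on the log2 scale in AKR/J, C57BL/6J and Cav1-null fetuses (adjusted p = 0.016, 0.0162 and 0.00018 by edgeR). Fignl2 fell by 1.73 in AKR/J (adjusted p = 0.00218) and by 1.45 in Cav1-null mice (adjusted p = 0.0194), with -1.70 (adjusted p = 0.0631) in C57BL/6J. Cdk6, a kinase partner of the D cyclins, rose in AKR/J in the early phase (1.03, adjusted p = 0.0114) and fell in all 3 strains in the late phase, by 0.47, 1.13 and 0.79 (highest adjusted p = 0.0394). Hras, a small GTPase, rose in Cav1-null mice in the early phase by 0.37 (adjusted p = 0.0106). The 8 letters of the let-7 match were present in 46.2% of the UTRs of this list.

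The machinery that makes and uses let-7 was read from 24 genes. Of these (the Drosha and Dicer1 complexes, Argonaute and Tnrc6 genes, the terminal uridylyl transferases Tut4 and Tut7 that act with LIN28, the exonuclease Dis3l2 and others), 3 rose and 0 fell in the early phase of AKR/J, none passed in C57BL/6J and 6 fell in Cav1-null mice. Between d15 and d17, 9, 3 and 5 fell and 1, 0 and 0 rose. The shares of all genes that rose early were 14.8%, 7.08% and 11.6%, and those that fell late 10.4%, 5.58% and 12.8%. The median log2 fold change of the list was 0.22, -0.06 and -0.12 early and -0.18, -0.40 and -0.09 late. Ago4, an Argonaute, rose in AKR/J (1.11, adjusted p = 0.0184 by edgeR). Msi1, an RNA-binding protein of neural progenitors that works with LIN28 on let-7 precursors, fell in the early phase in Cav1-null mice by 0.70 (adjusted p = 0.0181) and in the late phase in all 3 strains, by 0.90, 1.38 and 0.50 (highest adjusted p = 0.011). Dicer1, which cuts the precursors, changed by 0.57, -0.09 and -0.26 in the early phase and passed in no strain.

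Transcripts that carry let-7 and miR-125 genes were read as a proxy that does not measure the mature microRNAs. Mir100hg, host of let-7a-2 and miR-125b-1, was abundant at 384 to 929 CPM and changed by 0.25, -0.12 and -0.02 on the log2 scale in the early phase, with no call. In the late phase it fell in Cav1-null mice by 0.32 (adjusted p = 0.0233 by edgeR). Mir99ahg, host of let-7c-1 and miR-125b-2, was at 46.9 to 163 CPM in AKR/J, at 18.2 to 35.8 CPM in C57BL/6J mice and at 19.5 to 71.0 CPM in Cav1-null mice. It fell in AKR/J in the early phase by 1.38 (adjusted p = 0.0114) and in Cav1-null mice in the late phase by 1.09 (adjusted p = 0.000285). Wdr82, which holds let-7g in an intron, rose in AKR/J in the early phase by 0.81 (adjusted p = 0.0105). No host transcript rose in the late phase.

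Of 8 genes known to be regulated by the members, 6 to 7 were tested, and none passed in the early phase of AKR/J or C57BL/6J. Igf2, the mRNA after which the Igf2bp genes are named, changed by -0.51 ± 0.67, 0.37 ± 0.60 and -1.65 ± 0.72 in the early phase (SE), with no call. Actb, whose mRNA is bound by IGF2BP1, fell in Cav1-null mice by 0.54 (adjusted p = 0.004 by edgeR). Cdkn2a, a cell cycle inhibitor repressed by HMGA2 in neural stem cells, was at most at 0.412 CPM in any library.

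Markers of neural stages also changed over gestation, by the counts below beside the shares of all genes given above. Of 10 progenitor genes, 5, 5 and 7 fell in the early phase and 8, 7 and 8 in the late one (AKR/J, C57BL/6J, Cav1-null), while 0, 0 and 1 rose early and 1, 1 and 0 late. Hes5, a Notch effector of progenitors, fell early by 2.06, 1.77 and 1.44 (highest adjusted p = 0.0178 by edgeR), and Nes, the intermediate filament nestin, fell early by 1.63 in Cav1-null mice (adjusted p = 0.000609). Fabp7, a fatty acid binding protein of radial glia, fell in AKR/J (-1.76, adjusted p = 0.0207) and rose in Cav1-null mice (0.48, adjusted p = 0.0189) in the early phase, and was the gene that rose late, by 1.04 in AKR/J (adjusted p = 0.00688) and 1.31 in C57BL/6J (adjusted p = 0.0321). Of 8 neuron genes, 6, 4 and 4 rose in the early phase and none fell. In the late phase 2, 2 and 4 rose, 0, 0 and 1 fell, and the median log2 fold change was 0.36, -0.14 and 0.17. Syt1, the calcium sensor of synaptic vesicles, rose by 2.13 in AKR/J (adjusted p = 0.00104) and by 1.09 in C57BL/6J (adjusted p = 0.0321), and Neurod6, a transcription factor of excitatory neurons, rose by 1.28 in Cav1-null mice (adjusted p = 0.0469). Of 9 astrocyte genes, 5, 1 and 0 rose in the early phase and 3, 2 and 8 in the late phase, and 2 fell early in Cav1-null mice. Aldoc, an aldolase of astrocytes, rose early in AKR/J by 3.61 (adjusted p = 0.000922). Aqp4, the water channel of astrocyte endfeet, rose early by 2.31 and 1.16 in AKR/J and C57BL/6J (adjusted p = 0.0175 and 0.0374) and late by 2.28, 4.09 and 3.23 (highest adjusted p = 0.0127). Gja1, the gap junction protein connexin 43, fell early in Cav1-null mice by 1.46 (adjusted p = 0.0146). The part of these cell types in the fall of the members was not tested.

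Splice junctions gave another readout of the same libraries. The table of junctions held 26 of 7 members and none of Trim71, and 14 of them had reads in all 27 libraries. The table was filtered by the authors, so a junction at 0 may have had reads that were removed. The single listed junction of Hmga2, over an intron of 10537 bases, had 380, 139 and 33 reads in AKR/J on d12, d15 and d17, then 378, 73 and 14 in C57BL/6J and 239, 31 and 19 in Cav1-null mice, each the sum of 3 libraries. The junction of Lin28a over an intron of 9957 bases had 29, 0 and 0 reads in AKR/J, 23, 1 and 2 in C57BL/6J mice and 8, 2 and 1 in Cav1-null mice. For Lin28b, the junction over an intron of 48328 bases had 134, 87 and 120 reads in AKR/J, 73, 73 and 86 in C57BL/6J mice and 97, 93 and 117 in Cav1-null mice, so that d17 was above d15. Another of its junctions, over an intron of 37705 bases, had 43 and 92 reads on d15 and d17 in AKR/J, 77 and 71 in C57BL/6J mice and 92 and 68 in Cav1-null mice, and so went down in the last 2. With library totals of 2792947 to 4697386 junction reads, the reads on junctions present in all libraries, relative to these totals, were lower on d17 than on d12 in 13 of 15 cases (5 members in 3 strains).

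Certain Igf2bp junctions had reads in only a part of the libraries. A junction of Igf2bp3 over an intron of 108598 bases (chr6:49082633-49191230) had 24, 21 and 3 reads on d12 in AKR/J, C57BL/6J and Cav1-null fetuses, 15 reads on d15 in AKR/J and 0 in all other groups. The last junction of Igf2bp2 in gene order (chr16:21879636-21880609) had 60, 105 and 101 reads over the 3 days in AKR/J, 0, 105 and 26 in C57BL/6J mice and 0, 131 and 102 in Cav1-null mice. It had reads in 11 of 27 libraries. Its neighbour, over an intron of 1379 bases, had reads in all 27 libraries, with 194 on d12 and 91 on d17 in AKR/J, 397 and 58 in C57BL/6J mice and 271 and 61 in Cav1-null mice. Since 0 may stand for removed reads, no test was made of these differences.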

How the data were processed

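Poly-A RNA of whole fetal brains was sequenced in 27 libraries, 3 for each of 9 groups, and grouped by the strain and day of the labels. The authors trimmed reads with cutadapt and fastp, checked them with FastQC, mapped them with STAR to GRCm39 and deposited raw read counts per gene, which were used here, and read counts per splice junction, filtered by them. The counting tool, its treatment of strand and of reads with several matches, and the versions of these tools are not given in the sources used here.

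Comparisons of 6 libraries were made in R 4.3.3 with edgeR 4.0.16 (limma 3.58.1 installed) on the counts (filterByExpr, TMM, glmQLFit, glmQLFTest), with calls at an adjusted p (Benjamini-Hochberg) under 0.05. SEs were obtained by dividing the size of the log2 fold change by the square root of F. The fits were tested on simulated data. Python 3.11.15 with numpy 2.4.6, scipy 1.17.1, pandas 2.3.3 and matplotlib 3.10.9 was used for levels, sequences and plots. The depth was 26363697 to 39759702 reads per library.

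The genes, lists and tests were chosen with earlier results of these data known. Named genes were all 8 members, in each list the called gene with the largest rise and fall in the early phase of each strain, the genes most like the members by Pearson r of log2(CPM + 1), and Hmga1b and Cav1 as checks. Mir100hg, Dicer1, Igf2, Cdkn2a and the genes that split the C57BL/6J libraries were named after their values were seen. Alternatives were the DESeq2 1.42.0 Wald test, RLE size factors, library sizes alone, no filter, a model of all 27 libraries, a replicate block, each library left out, and, added later, Hmga1 and Hmga1b summed.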

Additional observations from a re-analysis of the deposited data

Results flagged for a closer look

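Reads outside the rows of the 8 members were found in a pair of places. Hmga1b, the near-identical copy of Hmga1, had 1296 reads in the library with the most, and 1 to 6 reads in 12 other libraries. Of 15 rows of let-7, miR-98 and miR-125 precursors, 9 had no read in any library, and the highest count was 8 reads, for Mirlet7c-1.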

How the results depend on the processing

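Of the 58 calls of members, all 58 held under DESeq2 and with RLE size factors. The calls lost were 10 with library sizes alone, 2 with no filter on low counts, 10 in 1 model of all 27 libraries, 9 with the replicate block and 4 with Hmga1 and Hmga1b summed, and 32 held in every one of these alternatives. Of the 78 results not called, 33 changed sign in some alternative or without some library, 17 passed in some alternative other than leaving out a library, 18 passed without some library, and 25 passed in either.

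The number of members called moved by more than 1.5 times in the following cases, and the cause was not tested. With library sizes alone, 3 were called early in AKR/J and 2 (1 higher and 1 lower) between AKR/J and Cav1-null mice on d12, with 24.1% and 16.8% of all genes. Under this scaling the all-gene median of the log2 fold changes went to 0.46 and -0.41 in these comparisons, to -0.38 between AKR/J and C57BL/6J on d12 and to between 0.17 and 0.23 in the late phase of C57BL/6J and on d15 against C57BL/6J, and early in AKR/J it turned 2958 higher and 2800 lower genes into 3588 and 1214, late in C57BL/6J 1484 and 1110 into 2099 and 968, and between AKR/J and Cav1-null mice on d12 1925 and 1981 into 960 and 2397. Between AKR/J and C57BL/6J on d12, 2 members were called by DESeq2, 2 with no filter, 2 in the model of all 27 libraries and 3 with the replicate block. The shares of all genes called in these fits were 35.2%, 18.2%, 47% and 34%. On d15 the model of all 27 libraries called 2, with 22.5% of all genes. On d17 DESeq2 called 3, the model 2 and the sum of Hmga1 and Hmga1b left 0, with 6.58%, 3.6% and 0.737% of all genes. Between Cav1-null mice and C57BL/6J on d12, DESeq2 called 1, no filter 1 and the model 3, with 10.5%, 2.16% and 7.44% of all genes. Hmga1 between AKR/J and Cav1-null mice on d15 turned from -0.74 to 0.46 when it was summed with Hmga1b.

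With each library left out in turn, the members called ranged from 3 to 7, 0 to 7 and 4 to 7 early in AKR/J, C57BL/6J and Cav1-null fetuses and from 4 to 6, 3 to 6 and 4 to 4 in the late phase. The share of all genes called ranged early from 12.4% to 43.5%, 0% to 29.8% and 11.2% to 35.9%. In the late phase it ranged from 7.58% to 23.3%, 0.767% to 33.2% and 18.9% to 25.5%. Between AKR/J and C57BL/6J on d12, d15 and d17, 0 to 4, 3 to 4 and 0 to 4 members were called, with 0.122% to 39.9%, 28.2% to 37.9% and 0.258% to 26.4% of all genes. Between Cav1-null mice and C57BL/6J, 0 to 0, 4 to 6 and 0 to 1 were called, with 0% to 7.37%, 49.8% to 53.7% and 0.00946% to 13.6% of all genes. Between AKR/J and Cav1-null mice, 1 to 5, 3 to 6 and 3 to 4 were called, with 5.97% to 35.1%, 8.36% to 21.7% and 6.52% to 11.2% of all genes. The interactions called 0 to 0 and 0 to 1, with 0.0135% to 14.8% and 0.00451% to 7.3% of all genes. Of 348 such values of called members, 85 lost the call and 0 changed sign, and 32 of the 58 calls held in every one of these fits. Group means were lower on d17 than on d12 in 23 of 24 cases, with Lin28b in Cav1-null mice as the exception. With library sizes alone, or with blood, placenta and yolk sac genes left out of the total, they were lower in 22, and Lin28b in C57BL/6J was the other exception (40.5 and 43.3 CPM on d12 and d17 by library size).

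Replicate numbers were shared between groups, but only 13 of 45 same-numbered pairs had a correlation of deviations over 0.1 (range -0.58 to 0.52) and 1 of 15 group pairs, AKR/J d12 with C57BL/6J d12, had all 3 over it. The main tests took no numbers as pairs, and the replicate block was an alternative fit in all 17 comparisons. In that of AKR/J d12 with C57BL/6J d12 it moved the members called from 1 to 3 and the share of all genes called from 28.6% to 34%. That pair stands out only by its correlations in these same data. With the replicate block, 0 members were called in the early phase of C57BL/6J, where 0 of all 19154 genes tested (0%) were called. With 3 libraries a group, changes of low genes such as Lin28a and Trim71 had SEs of up to 0.72 on the log2 scale within a strain. With rank correlations (Spearman), 2 of the 5 genes most like the members and 1 of the 3 most like Lin28b stayed the same, and with log2(CPM + 0.1) 4 and 3 did.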
